A study of Homo sapiens with 20 samples.

Results

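The KEGG gap junction pathway was followed through 38 genes in 2 human melanoma cell lines, A375 and 1205Lu, in which FRA1 had been silenced. The 38 genes were chosen by name, as rows of a table of 58870 genes of which 19986 were protein coding, with earlier results of these data known and with no threshold on a measured value. They were 4 junction proteins (GJA1, GJB2, GJC1 and TJP1), 7 G protein subunits and receptors, 8 adenylate cyclases and kinases, 9 calcium signalling genes and 10 tubulins. RNA was sequenced from A375 cells with non-targeting siRNAs (A375 si-NT), A375 cells with siRNAs against FRA1 (A375 si-FRA1), 1205Lu si-NT cells and 1205Lu si-FRA1 cells, with 3 samples in each of the 4 groups. The sample titles name the silenced gene by its symbol, FOSL1. Binding of FRA1 was measured by Cut&Run, in which an antibody directs a nuclease to cut the DNA around the bound protein, in 3 FRA1 samples and 1 IgG control of each line, without siRNA in their labels. Both are established lines, so each stands for 1 tumor, and the samples were not stated to come from separate cultures. The p-values therefore measure the spread between these samples, which may be technical. In bulk RNA, fewer cells expressing a gene and less RNA per cell cannot be told apart.

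Gap junctions are channels made of connexins that dock between neighboring cells and let ions, cAMP and other small molecules pass. ZO-1, encoded by TJP1, is a scaffold that binds connexins at the membrane, and microtubules, built from alpha and beta tubulin, carry connexin channels to it. Receptors that signal through Gi, Gs or Gq proteins change cAMP, calcium and diacylglycerol, and the kinases downstream of these messengers phosphorylate connexins. FRA1 is a FOS family subunit of the AP-1 transcription factor, which binds the sequence TGACTCA or its reverse complement TGAGTCA.

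RNA-seq depth ranged from 20573412 to 32518903 counts a sample. The FOSL1 mRNA stood at 407 to 423 CPM (counts relative to the scaled total of each library) in A375 si-NT and 25.6 to 26.0 in A375 si-FRA1, and at 477 to 491 in 1205Lu si-NT and 65.0 to 70.8 in 1205Lu si-FRA1, so the groups did not overlap in either line. Of 13 markers of keratinocytes, fibroblasts, endothelium and blood, 12 stayed at or below 1.92 CPM in every sample. The exception was PDGFRA, at a mean of 192 CPM in 1205Lu si-NT. Among melanocyte lineage markers, PMEL, MLANA, TYR and DCT averaged at most 1.13 CPM in any group, whereas SOX10 averaged 912 CPM in 1205Lu si-NT and 43.9 in A375 si-NT. Both lines thus had the pigment genes near 0. The remaining lineage markers differed between the lines in opposite directions. S100B was 450-fold higher in 1205Lu si-NT than in A375 si-NT, and MITF was 13.9-fold higher in A375 si-NT. The summed level of the dedifferentiation markers AXL, NGFR, SOX9 and FOSL1 was 1243 to 1257 CPM in A375 si-NT and 277 to 281 in A375 si-FRA1, and 1612 to 1645 in 1205Lu si-NT and 910 to 917 in 1205Lu si-FRA1. This sum, which includes the silenced gene itself, was lower after silencing in both lines, while NGFR on its own rose 4.30-fold in 1205Lu (edgeR adjusted p = 1.5e-10) from 2.66 to 3.49 CPM to 13.0 to 14.6 CPM. The part of these markers in the members' changes was not tested.

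Fold changes are given as si-FRA1 over si-NT on the log2 scale, so that a positive value means a higher level after silencing, and calls are those of edgeR (quasi-likelihood test) below 0.05 after Benjamini-Hochberg adjustment across all genes in the fit. In A375 cells, 13 members rose, 12 fell, 8 were not called and 5 had too few counts to be tested. Of all protein-coding genes tested in A375, 29.9% rose and 27.8% fell. In 1205Lu cells, 8 members rose, 20 fell, 7 were not called and 3 were not tested. Over all protein-coding genes tested in 1205Lu, the shares were 24% higher and 23% lower. The median log2 fold change of the members tested was 0.037 in A375, beside 0.014 over all genes tested, and −0.22 in 1205Lu, beside −0.00093 over all. Most changes were small. Only PRKG1 in A375 passed a log2 change of 1 at that adjusted p, and no member did in 1205Lu, where 28 were called, beside 5.29% of protein-coding genes in A375 and 2.97% in 1205Lu.

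**Figure D1:**
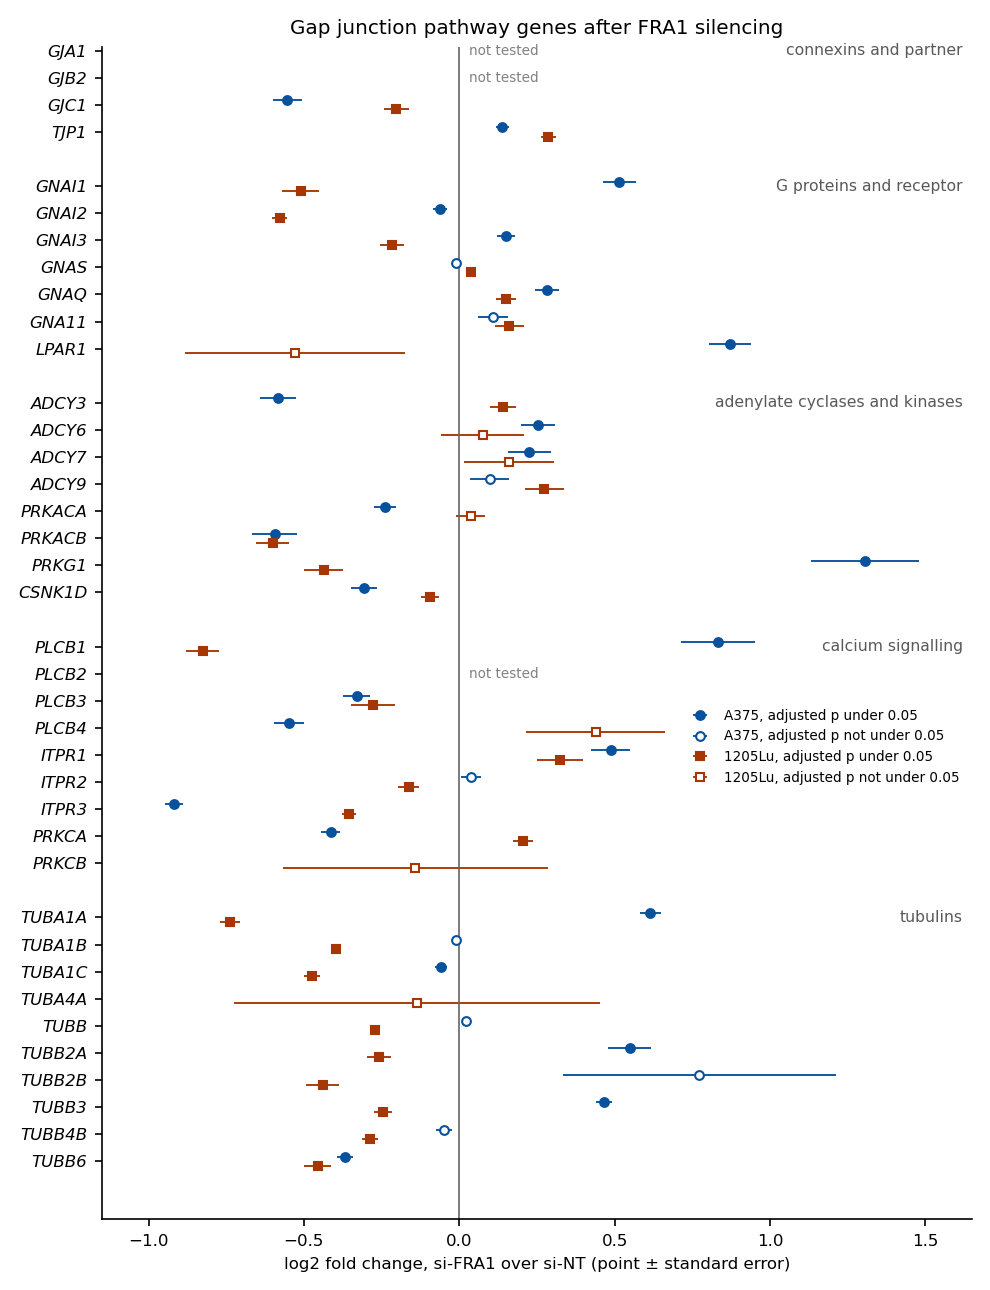
Log2 fold change of each member, si-FRA1 over si-NT, in A375 (circles) and 1205Lu (squares) with its standard error from the edgeR fit; filled symbols have an adjusted p under 0.05. The tubulins lie left of 0 in 1205Lu, where 9 of 10 were called lower, and on both sides of it in A375, and PRKG1 in A375 (1.31) lies farthest from 0.

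Of the 3 connexin members, GJC1 (connexin 45) was the one with enough reads to test, and its mRNA fell after silencing in both lines. The connexins known best from skin were almost silent: GJA1 (connexin 43) had 0 to 10 counts and GJB2 (connexin 26) 0 to 5 counts in all 12 samples, too few to test. GJC1 measured 59.6, 63.6 and 64.5 CPM in A375 si-NT and 43.6, 41.9 and 42.8 in A375 si-FRA1. The A375 groups did not overlap, and the log2 fold change was −0.55 ± 0.0469 (standard error; edgeR adjusted p = 5.38e-10). In 1205Lu, GJC1 measured 80.7, 74.9 and 78.9 CPM with si-NT and 68.1, 68.9 and 69.5 with si-FRA1. Here too each silenced sample lay below each control, by a smaller log2 fold change of −0.20 ± 0.0398 (edgeR adjusted p = 0.000332). The loss was larger in A375 than in 1205Lu, with a difference of 0.36 between the effects, 1205Lu minus A375 (edgeR interaction, adjusted p = 2.92e-05).

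GJC1 gave most of the connexin reads in both lines, and its share was lower in every silenced A375 sample than in every control. GJC1 took 72.7%, 72.9% and 72.2% of all connexin CPM in the A375 si-NT samples and 56.3%, 55.1% and 55.1% in A375 si-FRA1. In 1205Lu its share was 79.7%, 80.4% and 80.1% with si-NT and 80.5%, 79.4% and 78.3% with si-FRA1, and the groups overlapped. An exact two-sided permutation test gave p = 0.1 in A375, the smallest that 3 samples against 3 can give, and p = 0.5 in 1205Lu. GJA5 (connexin 40), no member but a connexin, rose in A375 from 9.31, 8.02 and 11.2 CPM to 21.9, 20.8 and 22.2 CPM, a log2 fold change of 1.19 ± 0.0980 (edgeR adjusted p = 3.47e-10). All connexin genes summed gave 86.1 ± 3.78 CPM in A375 si-NT and 77.1 ± 0.949 in A375 si-FRA1, and 97.6 ± 4.16 in 1205Lu si-NT and 86.7 ± 2.07 in 1205Lu si-FRA1 (SD, n = 3 each, exact permutation p = 0.1 in each line). Summed connexin reads were therefore lower in every silenced sample than in every control of its line, at the limit of what the design can test.

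**Figure D2:**
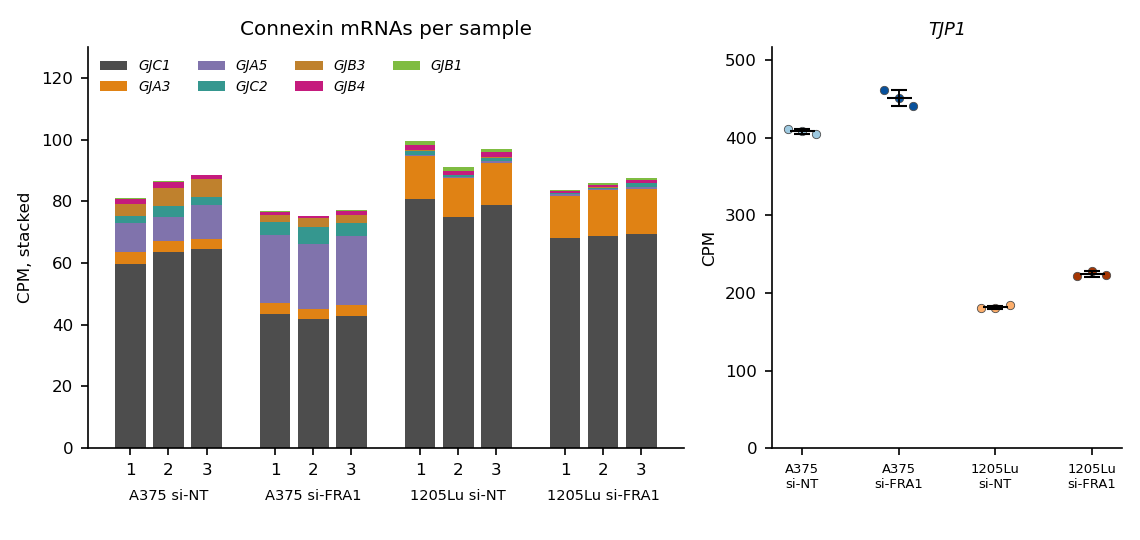
Left, CPM of the 7 connexin genes that reached 40 counts in any sample, stacked for each of the 12 samples; right, CPM of TJP1 per sample with mean and SD. GJC1 fills 72.2% to 72.9% of the connexin CPM in A375 si-NT and 55.1% to 56.3% in A375 si-FRA1, where the GJA5 layer is thicker, and TJP1 is higher with si-FRA1 in both lines.

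TJP1, which encodes the scaffold ZO-1, moved the other way and rose in both lines. Its level was 412, 408 and 405 CPM in A375 si-NT and 462, 451 and 441 in A375 si-FRA1, and 181, 180.1 and 184 CPM in 1205Lu si-NT and 222, 228 and 223 in 1205Lu si-FRA1. Neither pair of groups overlapped. The log2 fold change was 0.14 ± 0.0208 in A375 (edgeR adjusted p = 4.96e-06) and 0.29 ± 0.0242 in 1205Lu (edgeR adjusted p = 6.59e-09), and the rise was larger in 1205Lu by 0.16 (edgeR interaction, adjusted p = 0.000299).

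FRA1 counts exceeded the IgG count at GJC1 in both lines, at 1 peak. A peak counted as enriched in a line if none of its 3 FRA1 samples held fewer than 10 counts or fewer than 4 times 1 more than the IgG count, a rule on raw counts without a p-value. The A375 FRA1 samples hold far more counts than their IgG sample, and with each sample scaled to the same total in peaks none of the 95 member peaks enriched in A375 passed, and 3 of the 11 in 1205Lu did (at GJC1, GNAQ and TUBA4A). Elsewhere in the text, enriched is meant in the sense of raw counts. The peak lies in an intron of GJC1 (chr17:44820327-44821409, GRCh38; the gene spans chr17:44798448-44830816 on the minus strand). It held 152, 256 and 193 counts in the A375 FRA1 samples against 11 with IgG, and 50, 98 and 80 in the 1205Lu FRA1 samples against 3 with IgG. As a share of the counts in peaks this was 1.58, 1.68 and 1.58 times the IgG share in A375 and 8.98, 11.5 and 10.7 times in 1205Lu. After TMM scaling of the samples it was higher in 1205Lu, by a log2 difference of 1.29 (edgeR adjusted p = 1.12e-08). The peak holds 2 AP-1 sequences, and the one nearest its center, at −140 bp from it, is shown. It was chosen because this is the only GJC1 peak enriched in both lines. Capitals mark the AP-1 sequence, read 5′ to 3′ on the plus strand.

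GJC1, chr17:44820695-44820761: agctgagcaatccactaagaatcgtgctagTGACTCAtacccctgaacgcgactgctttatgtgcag

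A promoter peak here is one within 3 kb of any annotated transcript start of the gene, including starts inside the gene. The GJC1 promoter peak (chr17:44813375-44814323) lies at such an inner start, away from the 5′ end of the gene at chr17:44830816. Its counts were 47, 70 and 61 against 5 with IgG in A375, and 8, 11 and 8 against 5 with IgG in 1205Lu. That peak passed the rule in A375 and not in 1205Lu, although the lines were not called different there (log2 difference −0.034, edgeR adjusted p = 0.93). TJP1 carried 14 peaks, 10 of them enriched in A375 and none in 1205Lu. The TJP1 intron peak with the most counts (chr15:29924553-29926120) held 321, 501 and 412 in A375 against 16 with IgG and 9, 5 and 3 in 1205Lu against 6 with IgG, a log2 difference of −3.48 (edgeR adjusted p = 4.49e-13).

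The G protein subunits did not move as a block. In A375, GNAI1, GNAI3, GNAQ and the receptor gene LPAR1 rose and GNAI2 fell. In 1205Lu, GNAI1, GNAI2 and GNAI3, the subunits of Gi that inhibit adenylate cyclase, all fell, while GNAS (Gs, which activates it) and GNAQ and GNA11 (Gq and G11, which activate phospholipase C beta) rose.

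GNAI1 measured 30.05, 29.4 and 31.9 CPM in A375 si-NT and 42.9, 45.0 and 43.1 in A375 si-FRA1. It measured 33.6, 34.6 and 32.5 CPM in 1205Lu si-NT and 22.7, 24.2 and 24.6 in 1205Lu si-FRA1. The groups were apart in both lines, with all silenced samples above the controls in A375 and below them in 1205Lu, at log2 fold changes of 0.52 ± 0.0533 (edgeR adjusted p = 1.66e-08) and −0.51 ± 0.0596 (edgeR adjusted p = 6.57e-07). GNAI3 showed the same crossing at a smaller size: 117, 116.0 and 116 CPM against 132.03, 127 and 130.2 in A375, and 89.4, 87.2 and 84.6 CPM against 76.5, 73.6 and 77.9 in 1205Lu. Its log2 fold changes were 0.15 ± 0.0302 (edgeR adjusted p = 0.000202) and −0.22 ± 0.0389 (edgeR adjusted p = 0.00014).

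LPAR1, a receptor for lysophosphatidic acid, changed most in A375 among the G protein subunits and receptor. It stood at 18.2, 17.0 and 17.3 CPM with si-NT and 30.1, 33.4 and 33.0 with si-FRA1, a log2 fold change of 0.87 ± 0.0670 (edgeR adjusted p = 9.66e-11). In 1205Lu it had only 13 to 32 counts a sample, at 1.06, 1.42 and 1.07 CPM with si-NT and 0.632, 1.07 and 0.764 with si-FRA1, and the groups overlapped (log2 fold change −0.53 ± 0.354, edgeR adjusted p = 0.261). LPAR1 held 3 intron peaks, all enriched in A375 and none in 1205Lu. The one with the most counts (chr9:110977074-110977686) had 189, 292 and 246 in A375 against 6 with IgG, and 3, 1 and 3 in 1205Lu against 3 with IgG.

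Of the remaining subunits, GNAI2 fell by 0.58 on the log2 scale in 1205Lu (edgeR adjusted p = 1.5e-13) and by 0.063 in A375 (edgeR adjusted p = 0.0194). The A375 groups overlapped, and the A375 call rested on single libraries and on settings. Without si-NT replicate 1 or 3, or si-FRA1 replicate 1 or 3, the edgeR adjusted p was 0.0521, 0.124, 0.101 and 0.0506. It was 0.0835 with upper-quartile scaling, 0.365 with no filter on low counts and 0.0581 with all 12 samples in 1 fit. GNAQ rose by 0.28 in A375 and 0.15 in 1205Lu, and GNAS rose by 0.039 in 1205Lu (edgeR adjusted p = 0.0167), a call that was lost when only genes with at least 10 counts in every sample were kept (0.027, edgeR adjusted p = 0.107), and stood at −0.0092 in A375 (edgeR adjusted p = 0.657). GNA11 rose by 0.16 in 1205Lu, with an edgeR adjusted p of 0.0599 without si-NT replicate 1, and stood at 0.11 in A375, with an edgeR adjusted p of 0.068 that became 0.0322 without si-NT replicate 1.

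Among adenylate cyclases, which make cAMP, the changes differed from gene to gene. ADCY3 measured 43.2, 47.9 and 44.4 CPM in A375 si-NT and 31.1, 31.9 and 27.9 in A375 si-FRA1, and 59.2, 60.7 and 59.9 CPM in 1205Lu si-NT and 66.9, 65.2 and 68.5 in 1205Lu si-FRA1. It fell in A375 (log2 fold change −0.58 ± 0.0587, edgeR adjusted p = 1.07e-08) and rose in 1205Lu (0.14 ± 0.0406, edgeR adjusted p = 0.00852), with no overlap of groups in either. ADCY6 and ADCY7 rose in A375, by 0.25 and 0.23, and were not called in 1205Lu, and ADCY9 rose by 0.27 in 1205Lu and was not called in A375. For ADCY7 in A375 the edgeR adjusted p was 0.00984, and 0.0556 without si-FRA1 replicate 3.

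PRKACB, 1 of the catalytic subunits of protein kinase A, fell by nearly the same amount in both lines. It measured 23.9, 23.3 and 23.8 CPM in A375 si-NT and 16.4, 15.3 and 15.4 in A375 si-FRA1. In 1205Lu it measured 47.7, 49.4 and 49.7 CPM with si-NT and 32.4, 30.6 and 35.0 with si-FRA1. All silenced samples lay below the controls, at log2 fold changes of −0.59 ± 0.0719 (edgeR adjusted p = 2.09e-07) and −0.60 ± 0.0544 (edgeR adjusted p = 1.88e-08). The difference between the lines was 0.0045 ± 0.0845, within its standard error. Another catalytic subunit gene, PRKACA, fell by 0.24 in A375 and was not called in 1205Lu (0.036 ± 0.0458, edgeR adjusted p = 0.574).

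PRKG1, the kinase that responds to cGMP, was the member that changed most in A375, from a low level. It stood at 2.39, 1.94 and 3.02 CPM in A375 si-NT, which is 49 to 73 counts, and at 6.27, 5.71 and 6.23 in A375 si-FRA1. In 1205Lu it stood at 42.1, 37.5 and 41.7 CPM with si-NT and 29.7, 28.6 and 32.6 with si-FRA1. The log2 fold changes were 1.31 ± 0.173 (edgeR adjusted p = 8.33e-07) and −0.44 ± 0.0618 (edgeR adjusted p = 8.01e-06), and even after its rise PRKG1 in A375 stayed below every 1205Lu sample. CSNK1D, which encodes casein kinase 1 delta, a kinase of connexin 43, fell in both lines, by 0.31 in A375 and 0.0955 in 1205Lu. Its 1205Lu call was lost without si-NT replicate 2 (edgeR adjusted p = 0.0629) or si-FRA1 replicate 1 (0.0976), with no filter on low counts (0.111) and with all 12 samples in 1 fit (0.0590).

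FRA1 peaks lay at several of these kinase genes. PRKG1 carried 15 peaks, all in introns, of which 8 were enriched in A375 and 2 others in 1205Lu. Those 2 were nearly empty in A375: chr10:51103547-51104464 had 45, 140 and 88 counts in 1205Lu against 6 with IgG, and 11, 17 and 6 in A375 against 7 with IgG, and chr10:51137824-51138666 had 23, 45 and 39 counts in 1205Lu against 4 with IgG, and 4, 11 and 6 in A375 against 6 with IgG. The log2 differences, 1205Lu over A375, were 5.65 and 4.99 (edgeR adjusted p = 5.45e-19 and 3.27e-16). A PRKACB promoter peak (chr1:84146290-84146836) lies at a start inside the gene, which begins at chr1:84078062 on the plus strand. It was enriched in A375, with 24, 39 and 24 counts against 3 with IgG. In 1205Lu it held 5, 6 and 8 counts against 4 with IgG and missed the minimum. The lines were not called different at it (0.49, edgeR adjusted p = 0.285). The first of these PRKG1 peaks held no AP-1 sequence. The AP-1 sequences nearest the centers of the second PRKG1 peak, which also differed between the lines, and of this PRKACB peak are shown. PRKACB, like CSNK1D, is a kinase gene that fell in both lines.

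PRKG1, chr10:51138151-51138217: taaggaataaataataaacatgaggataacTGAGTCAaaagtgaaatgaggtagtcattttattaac
PRKACB, chr1:84146559-84146625: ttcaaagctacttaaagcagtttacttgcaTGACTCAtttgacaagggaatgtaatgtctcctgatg

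The calcium arm, from phospholipase C beta to the IP3 receptors and protein kinase C, held PLCB1, the member with the largest change in 1205Lu, and ITPR3, the member that fell most in A375. PLCB1, which cleaves PIP2 into IP3 and diacylglycerol, moved in opposite directions by the same amount. It measured 5.42, 6.13 and 6.46 CPM in A375 si-NT and 11.3, 11.2 and 9.62 in A375 si-FRA1, and 75.5, 69.1 and 67.6 CPM in 1205Lu si-NT and 38.3, 40.8 and 42.3 in 1205Lu si-FRA1. The groups did not overlap, at log2 fold changes of 0.83 ± 0.118 (edgeR adjusted p = 2.35e-06) and −0.83 ± 0.0516 (edgeR adjusted p = 7.33e-11). Silencing left the gap between the lines narrower than before, with all 1205Lu samples still above all A375 samples. An intron peak of PLCB1 (chr20:8860049-8860846) was enriched in both lines, with 32, 51 and 31 counts in A375 against 3 with IgG and 16, 33 and 20 in 1205Lu against 3 with IgG, and was higher in 1205Lu by 1.96 (edgeR adjusted p = 5.55e-08).

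ITPR3, an IP3 receptor that releases calcium from the endoplasmic reticulum, fell in both lines. It stood at 283, 287 and 282 CPM in A375 si-NT and 159, 148 and 145 in A375 si-FRA1, and at 297, 306 and 304 CPM in 1205Lu si-NT and 235, 237 and 244 in 1205Lu si-FRA1. The control levels were close in the lines, and the drop in A375 (−0.92 ± 0.0296, edgeR adjusted p = 8.09e-18) was larger than in 1205Lu (−0.36 ± 0.0224, edgeR adjusted p = 8.5e-11), by 0.57 (edgeR interaction, adjusted p = 2.51e-11). Another receptor of the family, ITPR1, rose in both lines instead, by 0.49 in A375 and 0.32 in 1205Lu, and ITPR2 fell by 0.16 in 1205Lu and was not called in A375. PLCB3 fell in both lines, by 0.33 and 0.28, the latter with an edgeR adjusted p of 0.00331 that became 0.0509 without si-NT replicate 1. PLCB4 fell by 0.55 in A375 and had 38 to 57 counts a sample in 1205Lu, where it was not called.

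PRKCA, the calcium-dependent protein kinase C alpha, also crossed between the lines. It measured 129.8, 129.1 and 127 CPM in A375 si-NT and 98.4, 94.3 and 98.1 in A375 si-FRA1, and 119, 126 and 123 CPM in 1205Lu si-NT and 139, 142 and 149 in 1205Lu si-FRA1. With si-NT the lines were not called different (0.0054, edgeR adjusted p = 0.88), although the 3 A375 values lay above the 3 of 1205Lu. The CPM values were scaled over all 12 samples and this test over the si-NT samples alone, so the scales are not the same. Within each line the silenced samples stood apart from the controls, with log2 fold changes of −0.41 ± 0.0316 (edgeR adjusted p = 8.18e-11) and 0.21 ± 0.0326 (edgeR adjusted p = 3.21e-05). PRKCB, the beta form, had 1 to 22 counts and PLCB2 3 to 19 counts over all samples.

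PRKCA had more FRA1 peaks than any other member, 20, all in introns, with 10 enriched in A375 and 3 in both lines. Between the lines, 8 of its 19 tested peaks were higher in 1205Lu and 4 lower, so that neighboring sites in 1 gene differed in opposite directions. The intron peak at chr17:66509210-66510173 had 63, 83 and 66 counts in A375 against 7 with IgG, and 51, 79 and 77 in 1205Lu against 8 with IgG, a log2 difference of 2.64 (edgeR adjusted p = 1.57e-15). The peak at chr17:66548013-66552064 had 894, 1429 and 1137 counts in A375 against 34 with IgG, and 25, 27 and 24 in 1205Lu against 28 with IgG, a log2 difference of −2.82 (edgeR adjusted p = 1.46e-14). PLCB4 stood for the reverse case, with 10 of its 12 peaks enriched in A375, none in 1205Lu, and 10 lower in 1205Lu. Its intron peak at chr20:9200219-9201273 had 92, 172 and 129 counts in A375 against 11 with IgG and 2, 2 and 3 in 1205Lu against 1 with IgG. As a share of the counts in peaks, this PLCB4 peak was 0.96, 1.13 and 1.06 times the IgG share in A375 and 1.08, 0.70 and 1.21 times in 1205Lu. The PRKCA peak at chr17:66509210-66510173 was 1.03, 0.86 and 0.85 times in A375 and 3.44, 3.46 and 3.87 times in 1205Lu. In A375 both were thus near the IgG share. The AP-1 sequences nearest the centers of this PRKCA peak, enriched in both lines by raw counts, and of the PLCB4 peak, enriched in A375 by raw counts, are given with the same marking.

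PRKCA, chr17:66509718-66509784: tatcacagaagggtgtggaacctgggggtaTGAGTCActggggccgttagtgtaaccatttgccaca
PLCB4, chr20:9200732-9200798: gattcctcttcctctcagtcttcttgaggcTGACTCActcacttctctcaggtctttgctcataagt

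**Figure D3:**
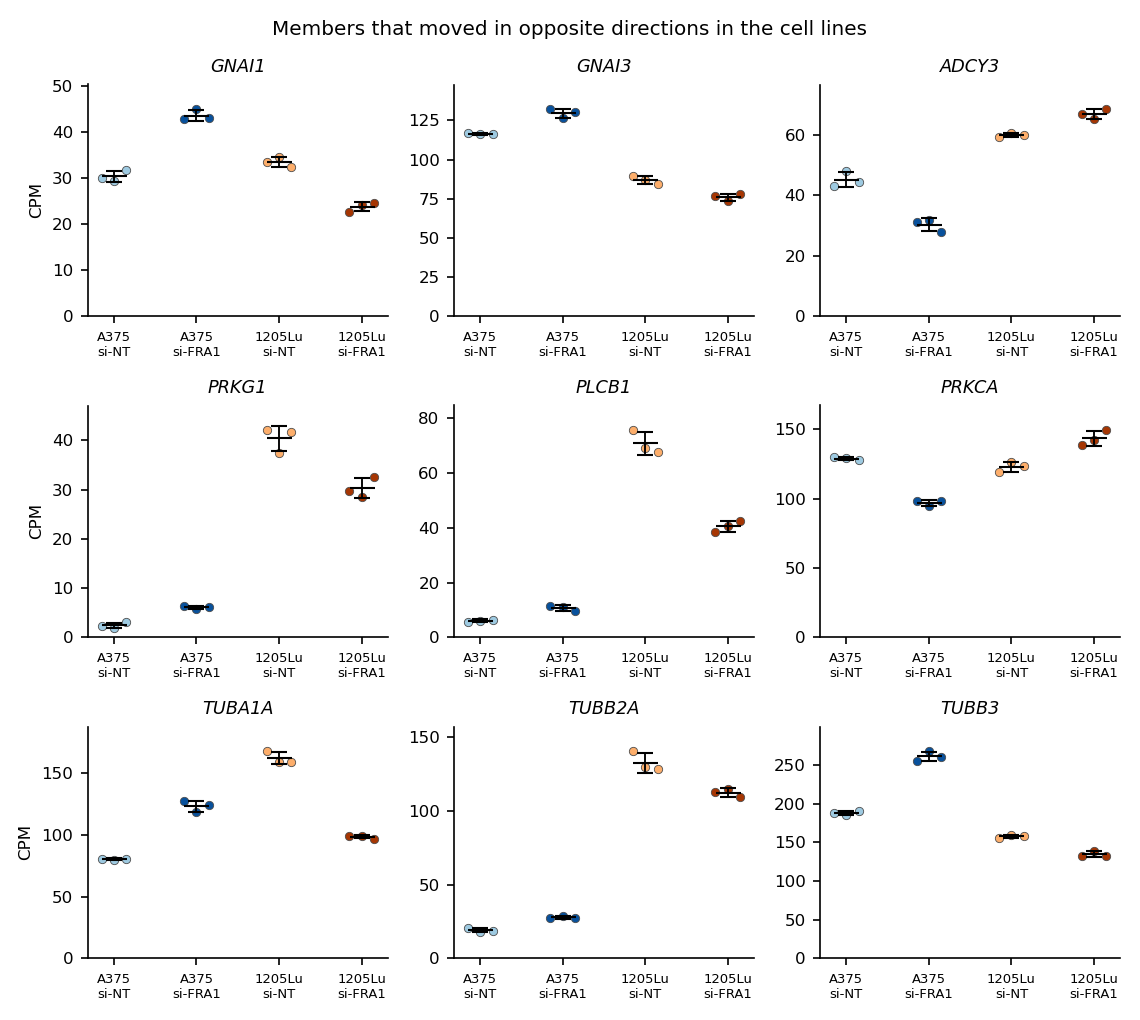
CPM of the 9 members that were called in opposite directions in the lines, each sample as a point with the mean and SD of its group, on linear axes from 0. ADCY3 and PRKCA were lower after silencing in A375 and higher in 1205Lu, and the other 7 were the reverse, with no overlap of si-NT and si-FRA1 within a line.

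Most tubulins fell in 1205Lu, while in A375 some rose and some fell. In 1205Lu, 9 of the 10 tubulin members fell, at log2 fold changes from −0.74 (TUBA1A) to −0.25 (TUBB3), and the tenth, TUBA4A, had 2 to 17 counts and was not called. The median over the 10 was −0.34, beside −0.00093 over all genes tested. In A375, TUBA1A, TUBB2A and TUBB3 rose, TUBA1C and TUBB6 fell, 4 were not called and TUBA4A was not tested, with a median of 0.020. TUBA1C fell by 0.060 in A375 with an edgeR adjusted p of 0.0111, and it was not called without si-FRA1 replicate 3 (0.0586) or with upper-quartile scaling (0.0631), under which TUBB was called higher instead (0.037, edgeR adjusted p = 0.0202).

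TUBA1A encodes an alpha tubulin that is abundant in neurons. It measured 80.8, 79.4 and 80.6 CPM in A375 si-NT and 127, 118 and 124 in A375 si-FRA1, and 168, 159 and 159 CPM in 1205Lu si-NT and 99.0, 99.3 and 97.0 in 1205Lu si-FRA1. The groups were far apart and the order of the lines turned over, with log2 fold changes of 0.62 ± 0.0349 (edgeR adjusted p = 3.46e-13) and −0.74 ± 0.0321 (edgeR adjusted p = 2.89e-13). TUBB2A measured 20.5, 17.9 and 18.4 CPM in A375 si-NT and 27.2, 28.6 and 27.5 in A375 si-FRA1, and 140.3, 129 and 128 CPM in 1205Lu si-NT and 113, 115 and 109 in 1205Lu si-FRA1. Its log2 fold changes were 0.55 ± 0.0690 (edgeR adjusted p = 3.88e-07) and −0.26 ± 0.0372 (edgeR adjusted p = 9.92e-06). TUBB3, the beta tubulin used as a neuronal marker, measured 188, 186 and 191 CPM in A375 si-NT and 255, 268 and 261 in A375 si-FRA1, and 156, 160.1 and 158 CPM in 1205Lu si-NT and 132.5, 139 and 132.5 in 1205Lu si-FRA1. Its log2 fold changes were 0.47 ± 0.0252 (edgeR adjusted p = 1.45e-13) and −0.25 ± 0.0292 (edgeR adjusted p = 7.93e-07).

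Tubulin reads as a whole followed the abundant genes. The 4 alpha tubulin members summed to 2703 ± 14.9 CPM in A375 si-NT and 2720.5 ± 32.0 in A375 si-FRA1, and to 1325 ± 6.12 in 1205Lu si-NT and 981 ± 10.1 in 1205Lu si-FRA1 (SD, n = 3 each). The 6 beta tubulins summed to 2245 ± 4.14 and 2301 ± 19.7 CPM in A375, and to 1676 ± 11.1 and 1394 ± 17.2 in 1205Lu. The changes of the alpha and beta sums were −25.9% and −16.8% in 1205Lu, and 0.659% and 2.49% in A375. Exact two-sided permutation tests gave p = 0.1 in 1205Lu for both sums and p = 0.6 and 0.1 in A375. TUBA1B and TUBB, which hold most of these reads, fell by 0.40 and 0.27 in 1205Lu and stood at −0.0092 and 0.020 in A375, neither called there. Tubulin genes resemble each other and have many processed copies, so reads may be split between them by the counting. The 37 annotated tubulin pseudogene rows summed to 2.26 to 4.92 CPM in every sample, far below the genes.

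**Figure D4:**
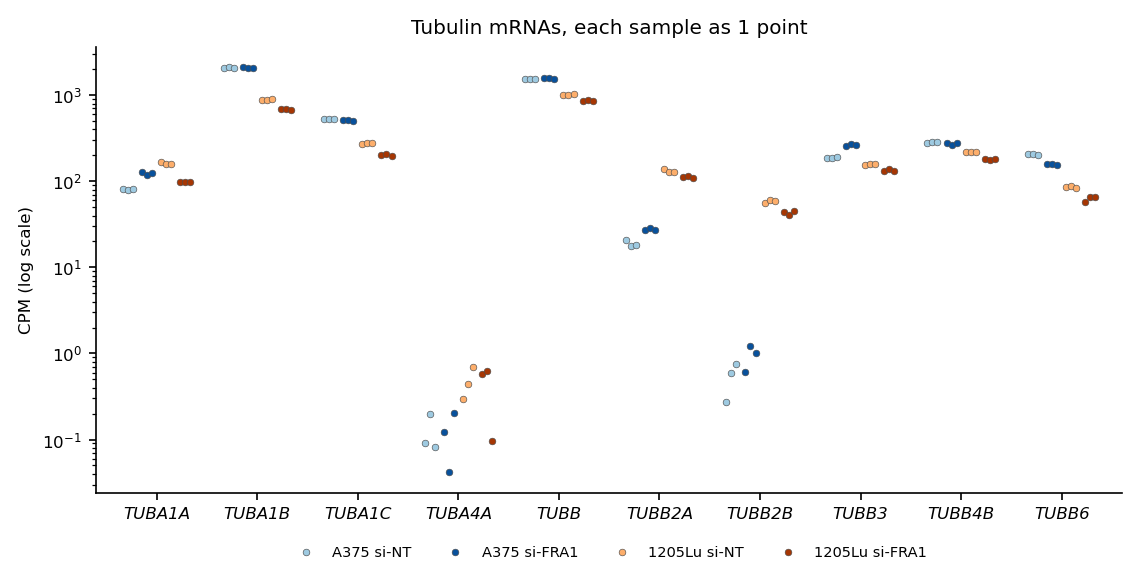
CPM on a log scale of the 10 tubulin members in each of the 12 samples, 1 point a sample, colored by group. All tubulins but TUBA4A have their 1205Lu si-FRA1 points below the 1205Lu si-NT points, while in A375 TUBA1A, TUBB2A and TUBB3 lie higher with si-FRA1; TUBB2B lies between 0.271 and 1.21 CPM in A375 and above 40 in 1205Lu.

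FRA1 peaks were listed at 7 of the tubulin genes, 6 of them with an enriched promoter peak in A375, and none lay within 3 kb of a start or in the gene for TUBA1A, TUBB2A and TUBB2B. The TUBB promoter (chr6:30717011-30718046) was enriched in both lines, with 214, 283 and 243 counts against 13 with IgG in A375 and 36, 61 and 48 against 8 with IgG in 1205Lu, and did not differ detectably between them (0.32, edgeR adjusted p = 0.0947). TUBA4A, though almost without reads, had 4 promoter peaks, all enriched in A375. One of them (chr2:219278982-219279920) held 252, 336 and 315 counts in A375 against 8 with IgG and 169, 260 and 241 in 1205Lu against 19 with IgG. That peak, both enriched TUBB peaks, another TUBA4A peak and the TUBB3 peak also lay within 3 kb of a start of another protein-coding gene, so the gene they belong to cannot be told apart by position. The AP-1 sequences nearest the centers of the shared TUBB peak (162 bp from it) and of a TUBA1C promoter peak (40 bp from it) are shown. They are examples of a peak enriched in both lines and one lower in 1205Lu (edgeR adjusted p = 3.41e-05). The TUBA1C peak (chr12:49264925-49266308), at a start inside the gene, had 149, 284 and 230 counts against 19 with IgG in A375. In 1205Lu it had 11, 20 and 15 against 7 with IgG.

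TUBB, chr6:30717657-30717723: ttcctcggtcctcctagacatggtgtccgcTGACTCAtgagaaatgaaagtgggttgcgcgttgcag
TUBA1C, chr12:49265623-49265689: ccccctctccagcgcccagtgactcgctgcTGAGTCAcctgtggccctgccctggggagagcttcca

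Set side by side, 11 members were called in the same direction in both lines, 9 in opposite directions, 5 in A375 only and 8 in 1205Lu only, 2 (PRKCB and TUBA4A) were tested in 1205Lu alone and not called, and 3 were tested in neither line. The lines have separate controls. Of the 4347 protein-coding genes called in both lines, 1249 (28.7%) moved in opposite directions. The 11 with the same direction were GJC1, PRKACB, CSNK1D, PLCB3, ITPR3, GNAI2, TUBA1C and TUBB6, which fell, and TJP1, GNAQ and ITPR1, which rose. Of these, the A375 calls of GNAI2 and TUBA1C and the 1205Lu calls of CSNK1D and PLCB3 were lost in some alternatives, as given above. The difference between the effects itself, 1205Lu minus A375, was called for 24 members, 9 higher and 15 lower, beside 19.9% and 18.9% of protein-coding genes. Among the 15 lower were 8 tubulins (TUBA1A, TUBA1B, TUBA1C, TUBB, TUBB2A, TUBB2B, TUBB3 and TUBB4B). The 8 members called in 1205Lu only included 4 tubulins, TUBA1B, TUBB, TUBB2B and TUBB4B, and for each the difference between the lines was called as well.

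The lines already differed before silencing. With si-NT, 17 members were higher in 1205Lu, 15 were lower, 2 were not called and 4 were not tested, beside 40.4% and 42.4% of protein-coding genes. TUBB2B was 112-fold higher in 1205Lu (55.5, 60.0 and 59.3 CPM against 0.271, 0.593 and 0.745 in A375, the last from 6 to 18 counts), PRKG1 17.4-fold, PLCB1 12.4-fold and TUBB2A 7.4-fold. PLCB4 was 28.3-fold higher in A375, LPAR1 14.1-fold and ADCY6 4.38-fold. ITPR1 and PRKCA were the 2 that did not pass (0.029 and 0.0054 on the log2 scale). Per kilobase of merged exons, TUBA1B led in A375 si-NT (585 ± 4.29 CPM per kilobase), followed by TUBB (381 ± 0.887), TUBB4B (139 ± 2.21) and TUBA1C (119 ± 0.156). In 1205Lu si-NT, TUBB (252 ± 4.49) and TUBA1B (248 ± 1.99) overlapped within their SD and were followed by TUBB4B (107 ± 1.35) and GNAS (83.7 ± 0.486; SD, n = 3 each). GJC1 was far down this order, at 7.18 ± 0.298 in A375 and 8.97 ± 0.340 in 1205Lu.

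FRA1 peaks were counted at 30 of the 38 members, 171 peaks in all, of which 51 lay within 3 kb of a start of the gene, 108 in introns and 12 in exons. In A375, 95 were enriched over IgG, in 1205Lu 11, and 8 in both. Totals in peaks were 3354095, 5316527 and 4256577 in the A375 FRA1 samples and 583750, 897407 and 781542 in the 1205Lu FRA1 samples, with 383994 and 314569 for IgG. The 1205Lu FRA1 samples thus held fewer counts in peaks, and the rule is set on raw counts. The TJP1 promoter peak chr15:29822117-29823442, for example, held 11, 17 and 13 counts in 1205Lu against 10 with IgG. It met the minimum and missed the multiple. The part of these totals in passing in A375 alone was not tested. An enriched promoter peak was present at 18 of 38 members in A375, beside 33.4% of protein-coding genes tested, and at 3 in 1205Lu (ITPR1, TUBA4A and TUBB), beside 4.62%. Any annotated start of a gene could carry such a peak, and the members ranged from 1 start (GNAI3) to 59 (GNAS). The shares were not adjusted for the number of starts. The counts depend on the rule: with 8 times IgG they were 5 and 1, and with each sample scaled to the same total in peaks they were 0 and 1 (TUBA4A).

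Of the 143 member peaks tested between the lines, 39 were higher in 1205Lu, 41 lower and 63 not called, beside 28.1% and 34.5% of all peaks tested. Peaks and levels were then compared gene by gene. Among the 12 members with tested peaks and a higher si-NT level in 1205Lu, 6 had only peaks that were higher there, 1 only lower ones, 4 both and 1 none. Among the 14 with a lower level in 1205Lu, 5 had only lower peaks, 3 only higher ones and 6 none. TJP1 (7 lower), LPAR1 (2 lower), PLCB4 (10 lower), TUBA1C (3 lower) and TUBB6 (1 lower) went with the lower mRNA, and GJC1, GNAS, ADCY9, CSNK1D and ITPR3 (1 or 2 higher) and PLCB1 (5 higher) with the higher mRNA. GNAI2, PLCB3, TUBB3 and PRKACB went the other way. These are counts over genes that share the same 6 libraries, given as a description. The test between the lines used FRA1 counts without IgG, so some peaks counted here did not exceed the IgG share. The TUBB6 peak was 0.54, 0.54 and 0.62 times the IgG share in A375 and 0.62, 0.75 and 0.75 times in 1205Lu. In 1205Lu, the ADCY9 peak called higher (chr16:3961212-3961591) was 0.54, 0.66 and 0.50 times. The CSNK1D peak called higher (chr17:82267326-82268454) was 0.79, 1.24 and 0.99 times there. The GNAS peak called higher (chr20:58875342-58876569) was above the IgG share in 1205Lu, at 2.36, 2.15 and 1.96 times. By contrast, the LPAR1 peak chr9:110977074-110977686 was 3.61, 3.52 and 3.70 times in A375 and 0.54, 0.12 and 0.40 times in 1205Lu.

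An AP-1 sequence lay within 100 bp of the center in 56 of the 171 member peaks (32.7%), beside 28.6% of all 54563 peaks, and anywhere in the peak in 57.9%, beside 57.7%.

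**Figure D5:**
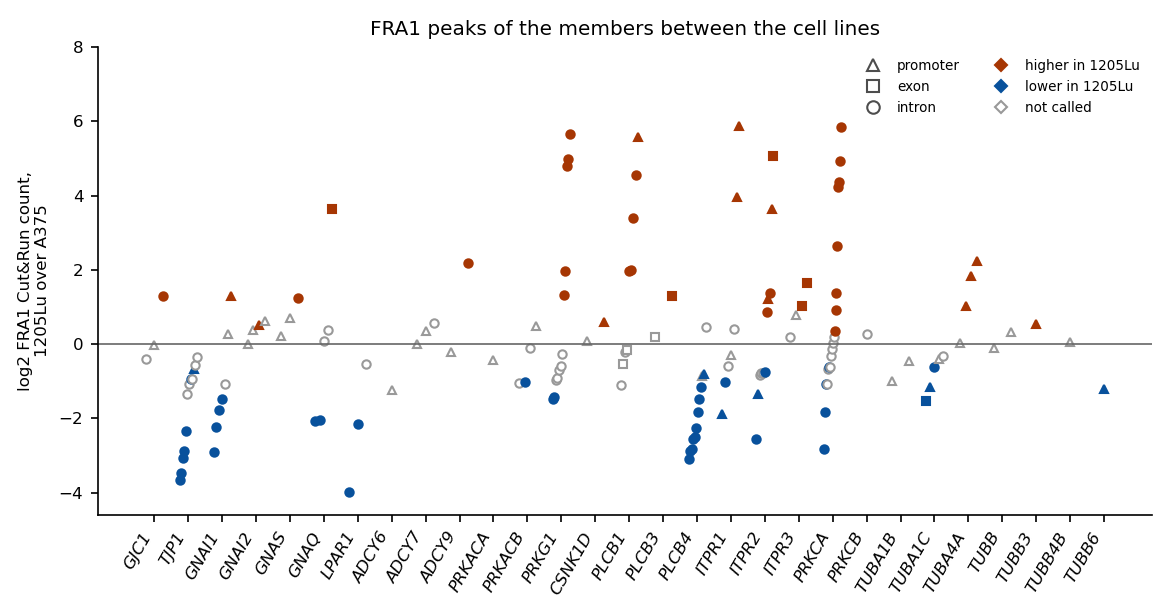
Log2 difference of the FRA1 Cut&Run count, 1205Lu over A375, of the 143 tested peaks, grouped by member; triangles are peaks within 3 kb of a start, squares exons and circles introns, and filled symbols have an adjusted p under 0.05. PLCB4, LPAR1 and TJP1 have called peaks only below 0, PLCB1 only above it, and PRKCA, PRKG1 and ITPR2 on both sides.

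The pathway has further genes that are not members, 72 of which were looked up from a written list. In A375, 14 of them rose, 13 fell, 12 were not called and 33 had too few counts, beside 29.9% and 27.8% of protein-coding genes tested. In 1205Lu, 10 rose, 13 fell, 15 were not called and 34 were not tested, beside 24% and 23%. In the Ras and MAP kinase arm, through which growth factor receptors reach connexins, 3 rose and 7 fell of 16 in A375, and 4 rose and 8 fell in 1205Lu. Named after its values were seen, MAP2K1 (MEK1) fell in both lines, by 0.29 in A375 and by 0.19 in 1205Lu. The growth factor receptor gene EGFR fell by 0.64 in A375 and rose by 0.13 in 1205Lu, while PDGFRB rose in both, by 0.80 and 1.16. The guanylate cyclase subunit GUCY1A2, also named after its values were seen, rose by 1.90 in A375 and fell by 0.50 in 1205Lu, the same directions as PRKG1. The listed cyclase, cGMP and kinase genes, which include it, did not share these directions as a group. In A375, 2 rose, 2 fell, 1 was not called and 10 were not tested. In 1205Lu, 3 rose, 1 fell, 2 were not called and 9 were not tested.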

How the data were processed

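RNA-seq of 12 samples and Cut&Run of 8 samples were used. Per the paper's methods and the labels, the authors trimmed adapters with cutadapt (1.8.1), aligned RNA reads of strand-specific libraries to GRCh38 with STAR (2.7.7a) and deposited the expected count of each gene from RSEM (1.3.0), as whole numbers that were not normalized. Cut&Run reads were aligned by the authors with Bowtie2 (2.4.1), called peaks with MACS2, joined them, and deposited unnormalized read counts per sample for 54563 peaks. Whether peaks were called per sample or pooled is not given in the sources used here.

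From these counts, edgeR 4.0.16 in R 4.3.3 (filterByExpr, TMM, quasi-likelihood test, Benjamini-Hochberg) was fitted to each comparison over all genes or peaks, and members were read from it. CPM per sample used TMM over all 12 samples. Standard errors of member fold changes in the silencing comparisons ran from 0.0122 to 0.590 on the log2 scale, the largest for TUBA4A with 2 to 17 counts. Transcription starts came from GENCODE v44 on GRCh38, while the counts used an earlier release. Python 3.11.15 drew figures and searched motifs on both strands. The fits were tested on simulated data. The members and lists were chosen with earlier results of these data known. Values per sample are printed for the junction genes, for members called with a fold change of at least 1.5 in a line and for members called in opposite directions. Peaks named beyond enriched promoter peaks and the body peak with the most counts, and genes that are no members, were chosen after their values were seen. Same-numbered samples did not deviate together. In Cut&Run, 1205Lu FRA1 replicates 2 and 3 were the closest pair (chi-square per degree of freedom 1.06, other FRA1 pairs 1.09 to 1.90) and were kept apart. Alternatives were DESeq2 1.42.0, other scalings and filters, 1 fit of all samples, a replicate block, other limits over IgG, a 1 kb promoter and each sample left out.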

Additional observations from a re-analysis of the deposited data

Results flagged for a closer look

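The effect of silencing differed between the lines, by the edgeR interaction test, for 24 of 36 members tested, and these are listed because the difference itself was tested. The values are the 1205Lu effect minus the A375 effect on the log2 scale. It was positive for PLCB4 (1.00), ADCY3 (0.74), PRKCA (0.63), ITPR3 (0.57), GJC1 (0.36), PRKACA (0.29), CSNK1D (0.22), TJP1 (0.16) and GNAS (0.060). It was negative for the receptor gene LPAR1 (−1.37), for the G protein genes GNAI1 (−1.01), GNAI2 (−0.50) and GNAI3 (−0.35), and for PRKG1 (−1.73), PLCB1 (−1.65) and ITPR2 (−0.19). The 8 tubulins called were on this side, with TUBA1A (−1.34), TUBB2B (−1.16), TUBB2A (−0.79), TUBB3 (−0.70), TUBA1C (−0.40), TUBA1B (−0.38), TUBB (−0.28) and TUBB4B (−0.23), while TUBB6 (−0.076, edgeR adjusted p = 0.299) and TUBA4A (−0.099, edgeR adjusted p = 0.963) were not called. LPAR1 and PLCB4 in 1205Lu and TUBB2B in A375 rest on 6 to 57 counts a sample.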

How the results depend on the processing

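Of 813 alternative values of the members' fold changes in the silencing comparisons, 776 kept their direction and their side of the threshold, 20 were no longer called, 8 became called and 9 changed sign. The 9 belonged to genes not called at the outset: in A375, GNAS with upper-quartile scaling (0.0077) and no filter on low counts (0.017), and TUBA1B with upper-quartile scaling (0.0078), no filter (0.017) and without si-FRA1 replicate 2 (0.00037); in 1205Lu, ADCY6 without si-NT replicate 1 (−0.015, other samples left out up to 0.16), TUBA4A without si-NT replicate 3 (0.24) and without si-FRA1 replicate 3 (0.33, lowest −0.49), and PRKCB without si-FRA1 replicate 2 (0.12, lowest −0.53). With an absolute log2 fold change over 1 added, 1 member rose and 0 fell in A375, 0 rose and 0 fell in 1205Lu, 0 and 6 differed higher and lower between the effects, and 9 and 7 between the lines with si-NT. Leaving out 1 sample gave 12 to 14 higher and 10 to 12 lower in A375, 7 to 8 and 19 to 20 in 1205Lu, and 33 to 42 and 31 to 40 member peaks between the lines. Promoter enrichment fell from 18 to 5 (A375) and from 3 to 1 (1205Lu) at 8 times IgG, and to 0 and 1 with equal totals; all member peaks enriched fell from 95 to 0 (A375) and from 11 to 3 (1205Lu) with equal totals, chosen after seeing the data. The same-numbered samples share only a number (correlations −0.016 to 0.019); a replicate block gave 14 higher and 12 lower in A375 and 8 and 20 in 1205Lu. Scaling Cut&Run by totals alone gave 36 higher and 53 lower member peaks in place of 39 and 41. Averaging 1205Lu FRA1 replicates 2 and 3, chosen after seeing the data, gave 37 higher and 32 lower peaks. Counts of GJA1, GJB2 and PLCB2 were too low to test in either line.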
